A study of Rattus norvegicus with 9 samples.

Results

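The transcripts described here had similar counts in untreated PC12 cells and in PC12 cells given erastin, and higher counts in cells given erastin together with PQR NPs. PC12 is a rat pheochromocytoma line, labelled neuronal-like and of WT genotype in all 3 groups. The groups were 3 untreated control libraries, 3 libraries from cells treated with erastin and 3 from cells treated with erastin plus PQR NPs, called co-treated below. No source used here gives the doses, the times or the make-up of the particles. Cells given PQR NPs without erastin were not analysed here, so a response to the particles cannot be told apart from a response to the combination.

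The members were chosen by their own counts in all 9 libraries. CPM, the count scaled to the total of its library, was averaged over the libraries of a group, and 0.5 CPM was added to each group mean before a ratio was taken. A member had a co-treated mean of at least 5 CPM, an erastin mean within 0.3 of control on the log2 scale in either direction, and a co-treated mean at least 0.5 above both other groups on the log2 scale. Its lowest co-treated library also lay above its highest control or erastin library, and its mean over 9 libraries was under 1000 CPM. The rule found 231 of the 41078 transcripts of the table, or 2.06% of the 11195 with a co-treated mean of 5 CPM or more. The height of these transcripts under co-treatment is therefore how they were found and is given as a description.

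Erastin blocks the cystine/glutamate antiporter, which starves cells of cystine for glutathione. Without glutathione the lipid hydroperoxide-reducing enzyme GPX4 loses its substrate, and iron-dependent oxidation of membrane lipids can then kill the cell by ferroptosis. In bulk RNA of this kind, a change in RNA per cell and a change in which cells survive to be sampled cannot be told apart. The table identifies each transcript by an Ensembl transcript ID with no gene name, and 0 of the IDs matched the RefSeq gene table used here. No gene function, pathway or PC12 marker can therefore be attached to the values, and no sequence is shown. In what follows, 2 members are named by ID. The others are given by fold rank, their place among the 231 by the smaller one of their ratios over control and over erastin, or by CPM rank, their place by mean co-treated CPM. CPM is not divided by transcript length, so CPM ranks order counts and not molecules.

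Total counts ran from 34772755 to 40826754 per library. The libraries of a group differed from each other by more than sampling noise, with a chi-square per degree of freedom of 31.7 to 71.4. The labels do not say whether they came from separate cultures, so the spread may be technical. The lowest count of any member in a co-treated library was 157. Apart from 1 member with counts of 0, the lowest count in any library was 53.

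The typical member was modestly higher under co-treatment. Over the 231 members, the median control level was 15.3 CPM, the median erastin level 14.6 CPM and the median co-treated level 26.7 CPM. The median log2 ratio was 0.73 for co-treated over control (interquartile range 0.60 to 0.93) and 0.76 for co-treated over erastin (0.63 to 0.92), that is 1.65-fold and 1.69-fold. Among the 11195 transcripts with a co-treated mean of 5 CPM or more, these medians were 0.03 and 0.16. Most members sat near the lower limit of the rule: for 151 of them the smaller ratio was under 0.75 on the log2 scale. Only 33 were 2-fold or more above both groups, and 10 were above both by a log2 ratio of 1.5 or more.

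Each library showed the same split. Set against each member's own control mean, the median log2 value was 0.08, -0.00 and -0.09 in the control libraries and 0.03, -0.07 and -0.06 in the erastin libraries. In the co-treated libraries it was 0.77, 0.74 and 0.71, while the median of all transcripts at 5 CPM or more was 0.03, 0.03 and 0.02 there. The co-treated medians lay close to each other. That they lay apart from the other 6 follows from the rule, which asks this of every member. Co-treated replicate 1 was the highest of its group for 102 members (44.2%), replicate 2 for 69 (29.9%) and replicate 3 for 60 (26.0%). Over all transcripts at 5 CPM or more these shares were 40.5%, 26.8% and 32.65%.

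**Figure D1:**
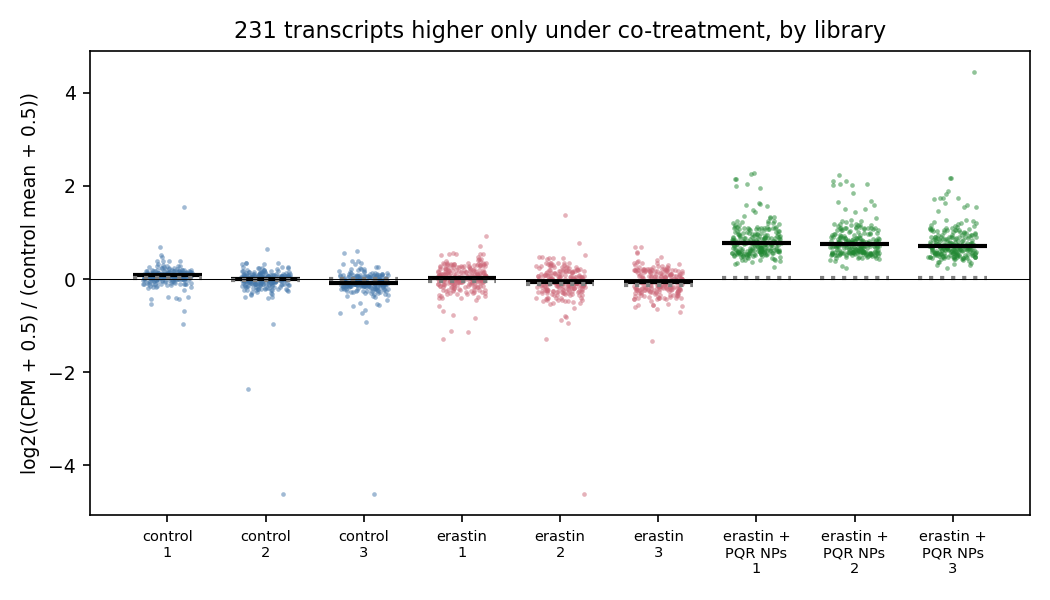
Each point is 1 of the 231 members in 1 library, as the log2 ratio of its CPM to its mean control CPM with 0.5 CPM added to both. Black bars are medians over the members and dotted grey bars medians over all transcripts with a co-treated mean of 5 CPM or more. The member medians were 0.77, 0.74 and 0.71 in the co-treated libraries and between -0.09 and 0.08 in the other 6.

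The members together took a small share of the counts. They held 0.785%, 0.765% and 0.711% of the counts in the control libraries, 0.787%, 0.731% and 0.716% with erastin and 1.35%, 1.35% and 1.34% under co-treatment. The control and erastin libraries overlapped. The co-treated libraries were apart from both, which also follows from the rule. The means were 0.754% ± 0.0385, 0.744% ± 0.0378 and 1.35% ± 0.00933 (SD, n = 3 each). The 95% Wilson intervals reach no more than 0.00361 percentage points to either side of a library's share, and cover counting error only. The sum was spread over many members, with 32.3% of the co-treated member counts in the 10 of highest CPM and 7.48% in the single highest. Without that highest member the shares were 0.731% ± 0.0387, 0.718% ± 0.0399 and 1.245% ± 0.00866 (SD, n = 3 each).

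The member with the most counts combined a large ratio with even libraries. ENSRNOT00000025784, of fold rank 2 and CPM rank 1, had 223, 214 and 225 CPM in the control libraries and 239.5, 305 and 262 CPM with erastin. Under co-treatment it had 982, 1034 and 1001 CPM, from 38593 to 42227 counts a library. Its lowest co-treated library was 3.22 times its highest library in the other groups. The control, erastin and co-treated means were 221 ± 5.88, 269 ± 33.4 and 1006 ± 26.4 CPM (SD, n = 3 each), 4.55-fold over control and 3.74-fold over erastin. With erastin alone it was 1.22-fold over control, close to the rule's limit, and it met the rule in 7 of the 9 choices with 1 library left out.

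For the member of fold rank 1, the size of the ratio rested on a single library. ENSRNOT00000025052 had 3.28, 7.26 and 2.80 CPM in controls, 7.53, 5.37 and 2.65 CPM with erastin and 11.2, 13.6 and 108 CPM under co-treatment. Co-treated replicate 3, with 4226 counts against 441 and 553, was far above the other co-treated libraries. The means of 4.45 ± 2.45, 5.18 ± 2.45 and 44.2 ± 55.1 CPM (SD, n = 3 each) give a 9.94-fold ratio over control. Without co-treated replicate 3 the co-treated mean was 12.4 CPM, 2.79-fold over control and 2.39-fold over erastin. In edgeR's quasi-likelihood test, described below, it was not called over control (adjusted p 0.0501, and 0.0367 to 0.154 over 14 alternatives). It was called over erastin (adjusted p 0.0254 in the same test), and this call was lost in 4 of 14 alternatives. DESeq2 is not among the 14 alternatives for this member.

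Another 5 members of the first 10 fold ranks had low levels and varied less than 2-fold within each group. The member of fold rank 3 had 8.53, 11.3 and 8.82 CPM in controls, 11.9, 6.80 and 7.39 CPM with erastin and 41.1, 35.5 and 32.5 CPM under co-treatment. Fold rank 4 stood at 6.503, 6.11 and 4.48 CPM in controls, 6.43, 5.23 and 6.499 CPM with erastin and 24.2, 26.3 and 20.1 CPM under co-treatment, 4.13-fold over control and 3.89-fold over erastin. In both, every co-treated library was at least 2.74 times the highest of the other 6. Fold rank 6 had 5.25, 4.39 and 5.496 CPM, then 4.36, 6.34 and 5.95 CPM, and then 21.1, 21.97 and 18.1 CPM in the same order of groups. Fold ranks 9 and 10 were the lowest of these, with co-treated means of 8.46 ± 0.399 and 10.2 ± 0.235 CPM against control means of 2.29 ± 0.270 and 3.10 ± 0.227 CPM and erastin means of 1.96 ± 0.315 and 2.51 ± 0.773 CPM (SD, n = 3 each). Their lowest co-treated libraries were 3.17 and 3.03 times their highest library elsewhere.

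The remaining 3 of the first 10 had libraries that disagreed within a group. Fold rank 5 had 15.2, 12.2 and 8.64 CPM in controls and 59.4, 51.0 and 45.7 CPM under co-treatment, but 5.30, 32.2 and 4.46 CPM with erastin. Fold rank 7 had 35.5, 0 and 0 CPM in controls, 22.8, 0 and 19.3 CPM with erastin and 54.1, 49.4 and 43.3 CPM under co-treatment. It was the member with counts of 0, and a 0 allows up to 3 counts, or at most 0.0863 CPM. Fold rank 8 had 43.2, 15.5 and 40.3 CPM under co-treatment, and its middle library was 1.03 times the highest erastin library. No source used here says how reads shared by transcripts of a gene were divided, and its part in such switches was not tested.

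**Figure D2:**
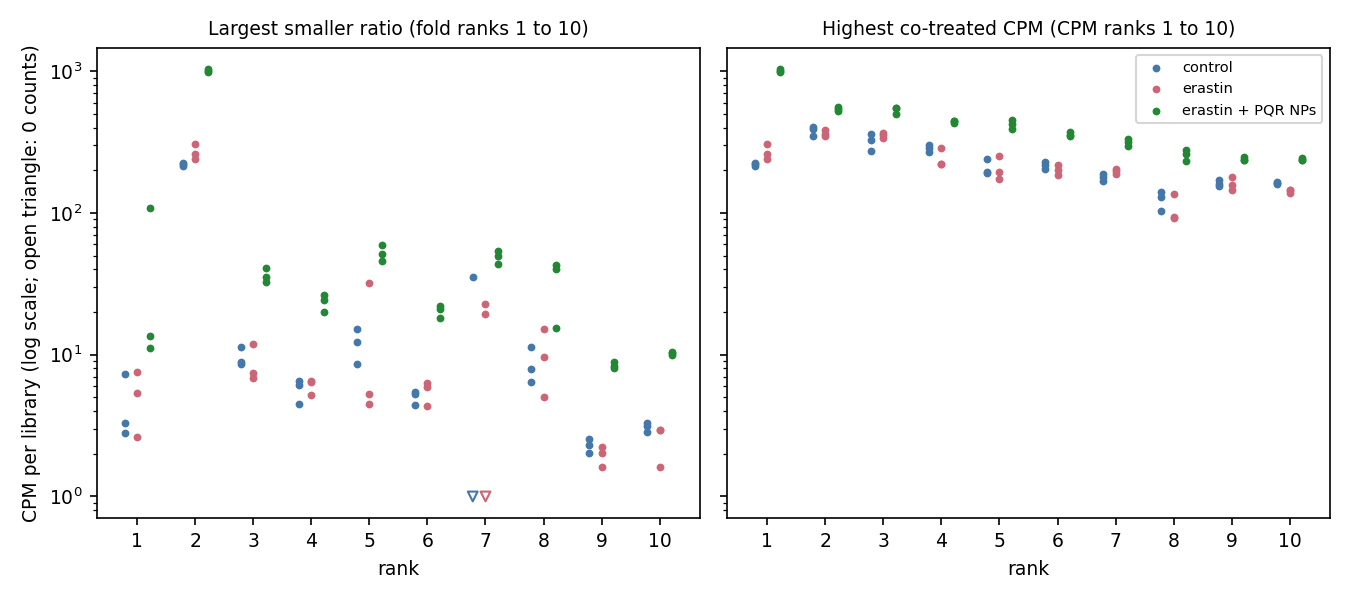
CPM of each library on a log axis for the 10 members with the largest smaller ratio (left) and the 10 with the highest co-treated CPM (right). Each library with counts above 0 is a point. A group with any count of 0 has a single open triangle at a fixed height, which is not a measured level. Every co-treated point lies above the control and erastin points of the same member, as the rule requires. The points of fold ranks 1, 5, 7 and 8 spread within a group, and levels of different members are not per length and are not to be compared.

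The next members by CPM rank mostly had small ratios, and their libraries differed by less than 2-fold within each group. The member of CPM rank 2 had 406, 390 and 350 CPM in controls, 383, 363 and 349 CPM with erastin and 557, 527 and 537 CPM under co-treatment. It was the last by fold rank, at 1.42-fold over control. CPM rank 3 had 326, 359 and 274 CPM in controls, 338, 368 and 355 CPM with erastin and 500, 546 and 546 CPM under co-treatment, 1.66-fold over control. CPM rank 4 had 300, 286 and 268 CPM in controls, 286, 223 and 220 CPM with erastin and 428, 445 and 446 CPM under co-treatment. CPM rank 5 was the next at 2-fold over both groups, with means of 208 ± 26.3 CPM in controls, 207 ± 40.4 CPM with erastin and 422 ± 31.9 CPM under co-treatment (SD, n = 3 each). Further down, fold rank 15 (CPM rank 16) joined a high count to a large ratio. It had 63.3, 66.9 and 51.7 CPM in controls, 75.4, 67.9 and 63.8 CPM with erastin and 167, 173 and 179 CPM under co-treatment, 2.85-fold over control and 2.50-fold over erastin.

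The class reached across the range of counts. By co-treated mean, 34 members lay between 5 and 10 CPM, 53 between 10 and 20, 76 between 20 and 50, 37 between 50 and 100 and 31 at 100 CPM or more. These were 2.01%, 2.50%, 2.39%, 1.81% and 1.51% of the transcripts in each range. In the last range only transcripts with a mean under 1000 CPM over the 9 libraries were counted. The median smaller ratio was 0.66, 0.70, 0.67, 0.59 and 0.70 on the log2 scale, with no steady trend over the ranges. Members at 2-fold or more over both groups numbered 4, 8, 13, 4 and 4.

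**Figure D3:**
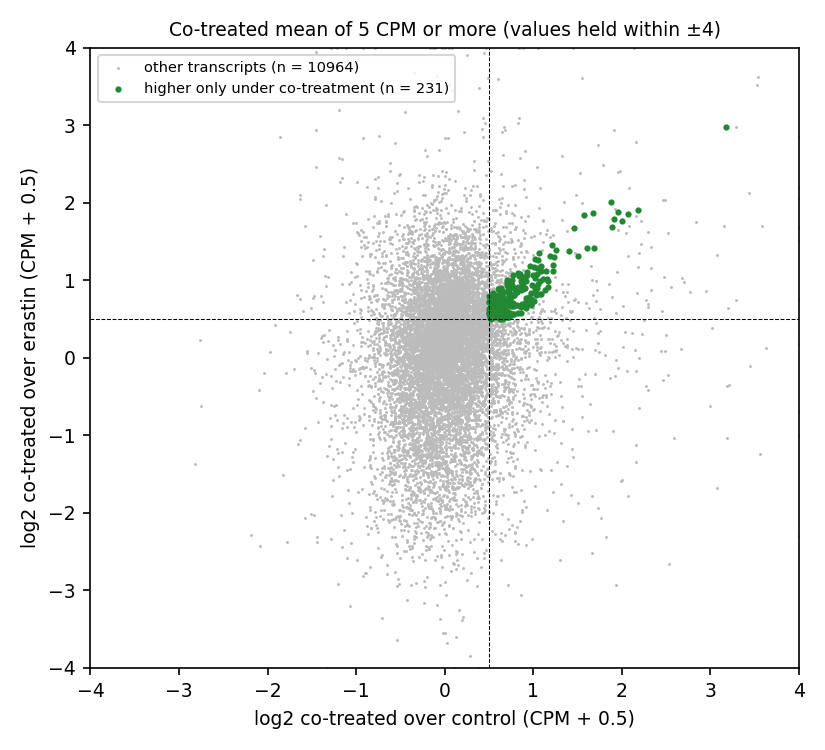
Log2 ratio of the co-treated mean over control (horizontal) and over erastin (vertical), with 0.5 CPM added, for the 11195 transcripts with a co-treated mean of 5 CPM or more; dashed lines mark 0.5. The 231 members (green) form a narrow band along the diagonal because the rule limits the difference between erastin and control, and 10964 other transcripts are grey.

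With erastin alone the members were close to control by choice, and the sign of the small difference was mixed. The erastin mean was above control for 98 members and below it for 133, and for 87 it was within 0.1 on the log2 scale. The median was -0.03 (interquartile range -0.14 to 0.11). The median coefficient of variation of the members was 10.04% among the control libraries, 12.2% among the erastin libraries and 7.14% among the co-treated ones, against 10.6%, 10.7% and 8.07% for all transcripts at 5 CPM or more. The rule favours members with even co-treated libraries, since it asks that the lowest of them clear the highest of the other groups. Still, 3 members varied 2-fold or more among the co-treated libraries, 11 among the controls and 16 among the erastin libraries, 23 members in all.

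In edgeR's quasi-likelihood test over 17123 transcripts all 231 members passed the filter on low counts, which each could pass through its co-treated libraries. At an adjusted p of 0.05, 180 members (77.9%) were called higher under co-treatment than in control, where 7.7% of all transcripts were, and 208 (90.0%) were called higher than with erastin, where 25.3% were. Both calls held for 179 members, and for 3.32% of all transcripts. The rule used the same contrasts, so these counts describe its strictness and nothing is read from them. The 180 became 117 without co-treated replicate 2. For erastin against control, 9 members were called, 7 lower and 2 higher, where 52.9% of all transcripts were called in either direction. The 9 became 4 without control replicate 2, 14 without control replicate 3, 16 without erastin replicate 1 and 5 without erastin replicate 2 or 3. They also became 15 with the stricter filter on low counts and 3 with only the 6 libraries compared. The shares of all transcripts called under these alternatives are not given here.

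The 9 members called for erastin against control differed little between these groups, as the rule requires. Fold rank 75 had 89.8, 81.7 and 82.0 CPM in controls and 70.1, 69.4 and 66.5 CPM with erastin, and then 137, 149 and 147 CPM under co-treatment. Its erastin level was 0.812 of control and its co-treated level 1.71-fold of control. Fold rank 55, of the 2 that were called higher, had means of 8.32 ± 0.186 CPM in controls, 10.1 ± 0.485 CPM with erastin and 18.8 ± 0.544 CPM under co-treatment (SD, n = 3 each). The other of these 2 was ENSRNOT00000025784, whose erastin libraries varied more. Its adjusted p for erastin against control in edgeR's quasi-likelihood test was 0.0245, and 0.00257 to 0.0798 over 15 alternatives. The call was lost in 4 of them: without control replicate 1 (0.0573), without control replicate 2 (0.0798), without erastin replicate 2 (0.0586) and with only the 6 libraries compared (0.0533).

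In some members a low library carried the same replicate number in both of the other groups, as replicate 2 did in fold rank 7 above. Replicate 3 of fold rank 7 did not match, with 0 CPM in controls and 19.3 CPM with erastin. A further 2 members are given as examples. Fold rank 50 had 29.1, 72.1 and 72.2 CPM in controls, 26.1, 67.9 and 75.2 CPM with erastin and 117, 108 and 96.7 CPM under co-treatment, with replicate 1 low in both. Fold rank 213 had 23.0, 2.99 and 26.8 CPM in controls, 26.0, 6.89 and 26.3 CPM with erastin and 27.2, 29.4 and 28.6 CPM under co-treatment, with replicate 2 low in both. Neither was called in any of the 3 comparisons. They were singled out after their values were seen.

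Some values just inside and just outside the limits show how the rule drew its line. The smaller ratio of the last member was 0.5004 and that of the first transcript left out 0.497 on the log2 scale. That transcript had 103 CPM in controls, 94.97 CPM with erastin and 145 CPM under co-treatment, next to 382, 365 and 540.5 CPM for the last member. On the limit for erastin against control, a member at -0.298 stood beside a transcript at -0.303. On the level, a member at 5.37 CPM stood beside a transcript at 4.97 CPM. On the gap between libraries, a ratio of lowest co-treated to highest other library of 1.01 stood beside 0.998. Many transcripts missed by 1 condition alone: 227 by the limit for erastin against control, 127 by the ratio over control, 87 by the level, 63 by the ratio over erastin and 45 by the gap.

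The membership of single transcripts was less firm than the size of the class. With each of the 9 libraries left out in turn, the rule found 219 to 270 transcripts. With a library fewer, the condition on the lowest co-treated and highest other library is easier to meet. These counts therefore come from a somewhat looser rule. Of the 231 members, 102 met the rule in every one of these choices and 129 failed in 1 or more. Leaving out erastin replicate 1 lost 42 members, the most, and leaving out co-treated replicate 3 lost 8, the fewest. The median smaller ratio was 0.73 for the 102 and 0.59 for the 129 on the log2 scale. Scaling by TMM in place of total counts left 170 transcripts, of which 169 were members, since it lowered the co-treated ratios of transcripts at 5 CPM or more by a median of 0.06 over control and 0.07 over erastin.

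Counts not used in a choice were read by choosing transcripts from 6 libraries and looking at the 3 that were left out, 1 a group. The limits of the rule were themselves chosen with earlier results of these data known. In the left-out libraries most picked transcripts were again higher under co-treatment, mostly by a smaller median ratio. The labels do not say whether the left-out libraries came from cultures separate from the other 6. Without the libraries numbered 1 the rule picked 288 transcripts, and in the left-out libraries 253 of them (87.8%) were higher under co-treatment than in both other libraries. Without number 2 this held for 226 of 257 (87.9%), and without number 3 for 227 of 249 (91.2%). Among all transcripts with a co-treated mean of 5 CPM or more in the libraries used, the share was 29.9% and 34.7% for numbers 1 and 2, and for number 3 it was 4027 of 11180. Among those that, like the picked ones, had erastin within 0.3 of control, it was 45.0%, 49.1% and 51.2%. In the left-out libraries 5, 8 and 8 of the picked transcripts were lower under co-treatment than in both.

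A log2 ratio of 0.5 or more over both left-out libraries was kept by 136 of 288 (47.2%), 142 of 257 (55.2%) and 163 of 249 (65.5%) picked transcripts. The share over all transcripts was 5.22%, 6.11% and 7.31%, and over those with erastin near control 7.04%, 8.55% and 10.9%. The median ratio over control went from 0.72 in the libraries used to 0.54 in those numbered 1, from 0.74 to 0.65 in those numbered 2 and from 0.74 to 0.70 in those numbered 3, on the log2 scale. Over erastin it went from 0.74 to 0.63, from 0.79 to 0.70 and from 0.78 to 0.79. With 1 library a group there is no replicate in this reading, and no p-value is given.

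The other feature of the class, erastin at the level of control, was also read in the libraries left out. In the left-out libraries erastin was within 0.3 of control on the log2 scale for 62.5%, 59.1% and 61.0% of the picked transcripts. For all transcripts at 5 CPM or more it was 25.9%, 26.3% and 28.6%, and for those of them chosen only for erastin near control 62.1%, 63.8% and 67.6%. The picked transcripts were thus above the first of these shares for each number, and against the second they were slightly above for number 1 and below for numbers 2 and 3. These differences were not tested.

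**Figure D4:**
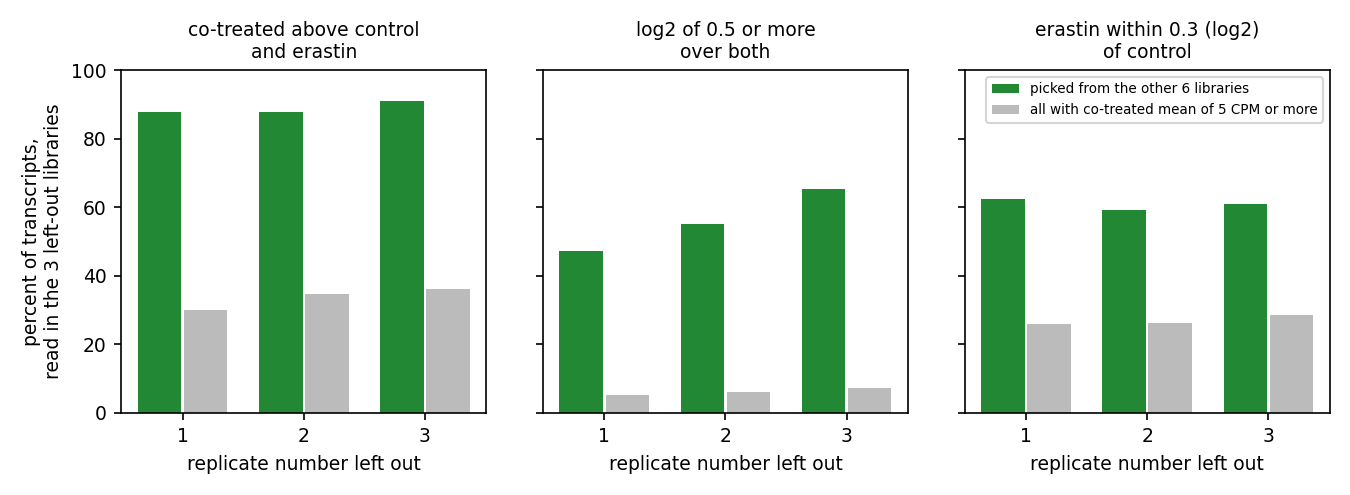
Bars give the percent of transcripts, from 0 to 100, that meet a condition in the 3 libraries of the replicate number left out: co-treated above both other libraries (left), a log2 ratio of 0.5 or more over both (middle) and erastin within 0.3 of control (right). Green bars are the 288, 257 and 249 transcripts picked from the other 6 libraries, and grey bars all transcripts with a co-treated mean of 5 CPM or more there. In the left panel the green bars reach 87.8%, 87.9% and 91.2% and the first 2 grey bars 29.9% and 34.7%.

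The same rule with the groups exchanged gives the size of the class some scale. It found 1445 transcripts higher with erastin than in control and co-treated cells where those were alike, and 191 higher in control than in both erastin groups where those were alike. The mirrored rule, with at least 5 CPM in control and erastin and the highest co-treated library below all others, found 119 transcripts lower under co-treatment. The median of the smaller ratio was 0.66 on the log2 scale for the 231 members, 1.12 for the 1445 and 0.72 for the 191. These counts share their libraries, and the differences between them were not tested. They are for CPM from total counts, and with TMM scaling the members' rule found 170 transcripts in place of 231.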

How the data were processed

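The deposited file held raw, unnormalized counts for 9 libraries, with a row for each Ensembl transcript, per the file headers. HISAT2 2.2.1 and build Rnor 6.0 are named in the submitters' processing notes without a role. No source used here names the counting program, the annotation or the treatment of shared reads and of strand. The labels' protocols describe oligo(dT)-selected RNA read from both ends.

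Columns were assigned to libraries by the names in their titles. The members and all lists and limits were chosen with earlier results of these data known. CPM used column sums. The test was edgeR 4.0.16 (R 4.3.3, quasi-likelihood, TMM, edgeR's own filter, Benjamini-Hochberg over 17123 transcripts, all 9 libraries in 1 fit), checked on data with known changes. Alternatives were upper quartile scaling, DESeq2 1.42.0, no filter or at least 5 CPM in 3 libraries, the replicate number as a block, the 6 libraries compared, and each library left out. For the rule they were TMM, upper quartile and DESeq2 scaling, pseudocounts of 1 and 0.1 CPM, and limits of 10 CPM and of 1 on both log2 ratios. The 2 members with the largest smaller ratio were named by ID. The rule for the others took the 5 of largest smaller ratio, the 5 of highest co-treated CPM and those nearest each limit. Fold ranks 6 to 10, 15, 50, 55 and 213 fall outside it and were picked after their values were seen.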

Additional observations from a re-analysis of the deposited data

How the results depend on the processing

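The number of members stayed between 170 and 270 against 231 under every scaling, pseudocount, level limit and left-out library run, and was 33 with a limit of 1 on both log2 ratios. The members called over control numbered 117 to 191 against 180 with 1 library left out, and stayed within 1.5 times of 180 under every other alternative. Those called over erastin stayed within 188 to 221 against 208 in all alternatives. With DESeq2 and with the stricter filter these counts are out of 229 members. The 9 members called for erastin against control were 15 with the stricter filter, 3 with only the 6 libraries compared and 4 to 16 with 1 library left out. With the replicate number as a block, 168, 200 and 8 members were called in the 3 comparisons. The shares of all transcripts called in these alternative fits are not given here. A shift over the whole table therefore cannot be told apart from a shift of the members. The deviations of same-numbered libraries from the group means correlated by -0.01 to 0.11 over 9 pairs. Correlations this weak, from so few libraries, cannot show whether same-numbered libraries shared more than a number. The share of counts held by the members under co-treatment, 1.35%, was 1.306% of the TMM-adjusted library sizes and 1.245% without the member with the most counts. With TMM scaling, 36.1% in place of 47.2% of the transcripts picked without number 1 kept a log2 ratio of 0.5 or more in the left-out libraries. For number 2 the share went from 55.2% to 56.6%, and for number 3 from 65.5% to 63.6%. Among all transcripts with a co-treated mean of 5 CPM or more, the TMM shares were 3.60%, 4.92% and 6.51%. With total counts they were 5.22%, 6.11% and 7.31%, so the share over all transcripts also fell. The cause of these changes was not tested. Member counts were 53 or more outside of 1 member with counts of 0, and a limit set by depth was not tested.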
